A study of Mus musculus with 16 samples.

Results

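The 8 cultures of primary mouse cortical neurons that had been kept with microglia were compared with the 8 that had been kept alone, which together make up all 16 libraries of the series. Libraries were assigned by their titles, and each side held 4 cultures loaded with α-synuclein fibrils and 4 untreated ones. The 4 groups were therefore fibril-loaded neurons with microglia, untreated neurons with microglia, fibril-loaded neurons alone and untreated neurons alone. All neurons came from C57BL/6 embryos at E15-16 and had been cultured for 14 days in Neurobasal medium with B-27 Plus. Atto488-labelled fibrils had been given at 0.1 µM over 16 h and washed off with PBS, and the 6 h with or without microglia came next. Both sides thus shared strain, medium and age in culture, and no genotype other than the strain is given. The source of the microglia, their number, and any step that parted them from the neurons before RNA isolation are not stated in the sources used here. The labels also leave unsaid whether each library is its own culture or animal; every p-value below therefore reflects library-to-library spread, part of which may be technical. RNA was measured with QuantSeq 3′ FWD, a kit that primes at the poly(A) tail and counts transcript 3′ ends. The question followed here is which genes moved with microglia in both fibril states, beyond oligodendrocyte-lineage and synaptic genes.

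Microglia are the resident immune cells of the brain; they survey neurons, engulf debris and can exchange material with neighbouring cells. Neurons spend most of their energy on ion pumping and vesicle cycling, and supply it by glycolysis and by oxidative phosphorylation. The vacuolar proton pump uses ATP to acidify synaptic vesicles and lysosomes. Neurons do not divide, so the genes of DNA replication and mitosis mark dividing cells, which in cortical cultures are mainly glial and their progenitors.

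Total counts were 6511516 to 11947749 in the co-cultures and 7881788 to 13986374 in neurons alone. The difference was within the spread (exact stratified permutation test, two-sided, adjusted p = 0.824 over 4 library measures). The 100 most abundant genes held 16.8% to 20.6% of counts in co-cultures and 19.7% to 28.9% in neurons alone, a difference with an adjusted p of 0.018 in the same test. Levels are given below as CPM, counts scaled to a common library size, after TMM scaling, and for each group the lowest and highest of its 8 libraries with their median. Summed CPM of 32 listed oligodendrocyte-lineage genes was 5395 to 13374 in co-cultures and 1489 to 4348 in neurons alone, with no overlap. Summed CPM of 22 neuronal identity genes was 2106 to 5128 (median 3031) in co-cultures and 2572 to 12733 (median 8279) in neurons alone. That of 19 excitatory neuron genes was 555 to 3019 (median 1272) in co-cultures and 1919 to 11076 (median 7697) in neurons alone. That of 20 astrocyte genes was 2251 to 14095 (median 4677) in co-cultures and 4892 to 18012 (median 8664) in neurons alone. In the neuronal, excitatory and astrocyte lists the groups overlapped, with the lower median in co-cultures. The 25 microglial identity genes summed to 1571 CPM in replicate 1 of the loaded co-cultures and to 946 CPM in replicate 1 of the untreated ones, while the other co-cultures lay at 39.8 to 127 CPM and neurons alone at 17 to 92.3 CPM. The defining microglial gene Csf1r reached 287 CPM with a median of 0 CPM in co-cultures, and 6.94 CPM with a median of 0.0586 CPM in neurons alone. Of the 25, 4 and 6 were at 0 in the microglia-rich libraries, 10 to 22 in the other co-cultures and 14 to 23 in neurons alone. The neuronal markers Map2 and Elavl3 were present in every library, at no less than 536 and 201 CPM in co-cultures and 392 and 143 CPM in neurons alone. Other abundant genes of that list differed more. Rtn1, Syt1 and Stmn2 had medians of 520, 148 and 71.3 CPM in co-cultures and 1333, 893 and 592 CPM in neurons alone. Stmn2 was at 0 CPM in its lowest co-culture. Of the 22 neuronal identity genes, 19 were lower with microglia and 3 were higher. Microglial transcripts were thus plentiful in 2 of the 8 co-cultures, and each call below that was not made without those 2 libraries is marked. In bulk RNA, fewer cells of a type and less RNA per cell cannot be told apart.

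With fibril state as a covariate, 279 of 13139 tested genes differed between co-cultures and neurons alone (edgeR quasi-likelihood test, Benjamini-Hochberg adjusted p under 0.05), which is 2.12% of those tested. Of these, 154 were higher with microglia (1.17% of tested genes) and 125 were lower (0.951%). Scaling by library totals, which moved the median log2 change of all genes to 0.18 from -0.03, gave 344 higher and 83 lower. Without the 2 microglia-rich co-cultures 154 genes differed, 86 of them higher and 68 lower, and 140 of those were among the 279. Of the 279 calls, 137 held in all 16 fits that left out 1 library, and "lost in 5" after a gene below gives how many of the 16 did not call it. "Lost in the 14", alone or added to that number, marks a gene that was not called in the 14 libraries left without the microglia-rich ones. The count was 175 without replicate 4 of the loaded neurons alone and 182 without replicate 2 of the untreated neurons alone. Of the 279 genes, 25 were in the oligodendrocyte-lineage, presynaptic or postsynaptic lists, which leaves 254 outside these lists, 136 higher and 118 lower. The lists name 33, 47 and 46 genes and are not complete. Some of the 254, such as Pllp and Zfp488 below, are known from the oligodendrocyte lineage, and others, such as Thy1 and Syt13, are neuronal. In 56 of the 279 genes, all 8 co-cultures lay above or all lay below the 8 neuron cultures. Over all tested genes 79 did (0.601%), and these include the 56. The 279 were called from the same comparison, which favours separated groups, so the 56 are given as a description only.

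All 279 genes moved the same way in loaded and in untreated cultures, and 256 of them had an unadjusted p under 0.05 in each state taken by itself. The choice of genes by the pooled comparison favours such accord, so this is a description. The difference between the states was itself tested, as an interaction, and passed for 0 genes in edgeR, with 529 genes at an unadjusted p under 0.05. DESeq2 called 195 interactions and limma-voom called 0. The plot of the change in each fibril state shows genes scattered around the diagonal in both directions.

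**Figure D1:**
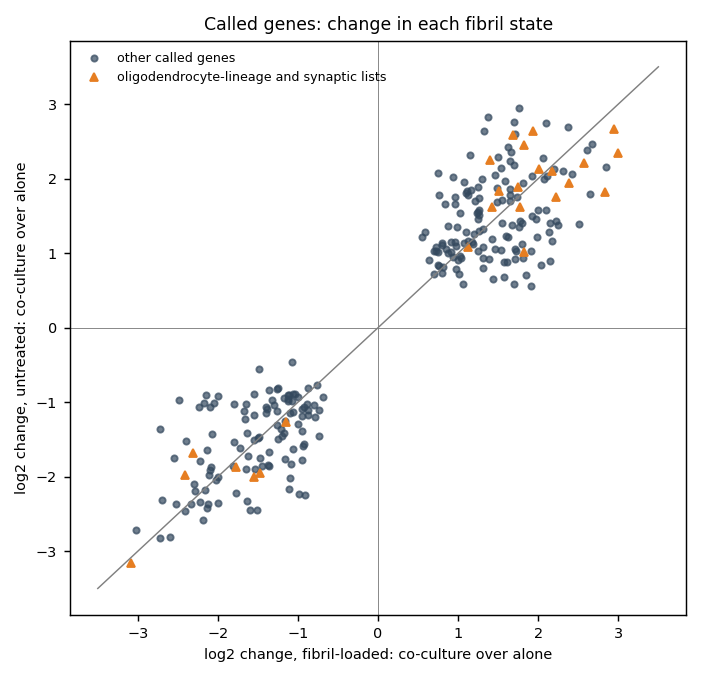
Log2 change with microglia in fibril-loaded cultures (horizontal axis) and in untreated cultures (vertical axis) for the 270 called genes whose mean log2 CPM exceeded 2. Each point is a gene, triangles are members of the oligodendrocyte-lineage and synaptic lists, and the line marks equal change; every point lies at the lower left or the upper right.

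The genes were read against 45 lists of cellular processes; 148 of the 279 called genes were in none of all 55 lists. Among the lists with the highest medians were mitosis and DNA replication, nuclear lamina and chromatin proteins, and splicing factors. Among those with the lowest medians were neuropeptides, calcium handling, ion channels, glycolysis, 14-3-3 proteins and the vacuolar proton pump. Across all tested genes the median log2 change was -0.03, and 48.6% of genes were higher with microglia. Every count of called list members below is to be set beside 1.17% of all tested genes called higher and 0.951% called lower.

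**Figure D2:**
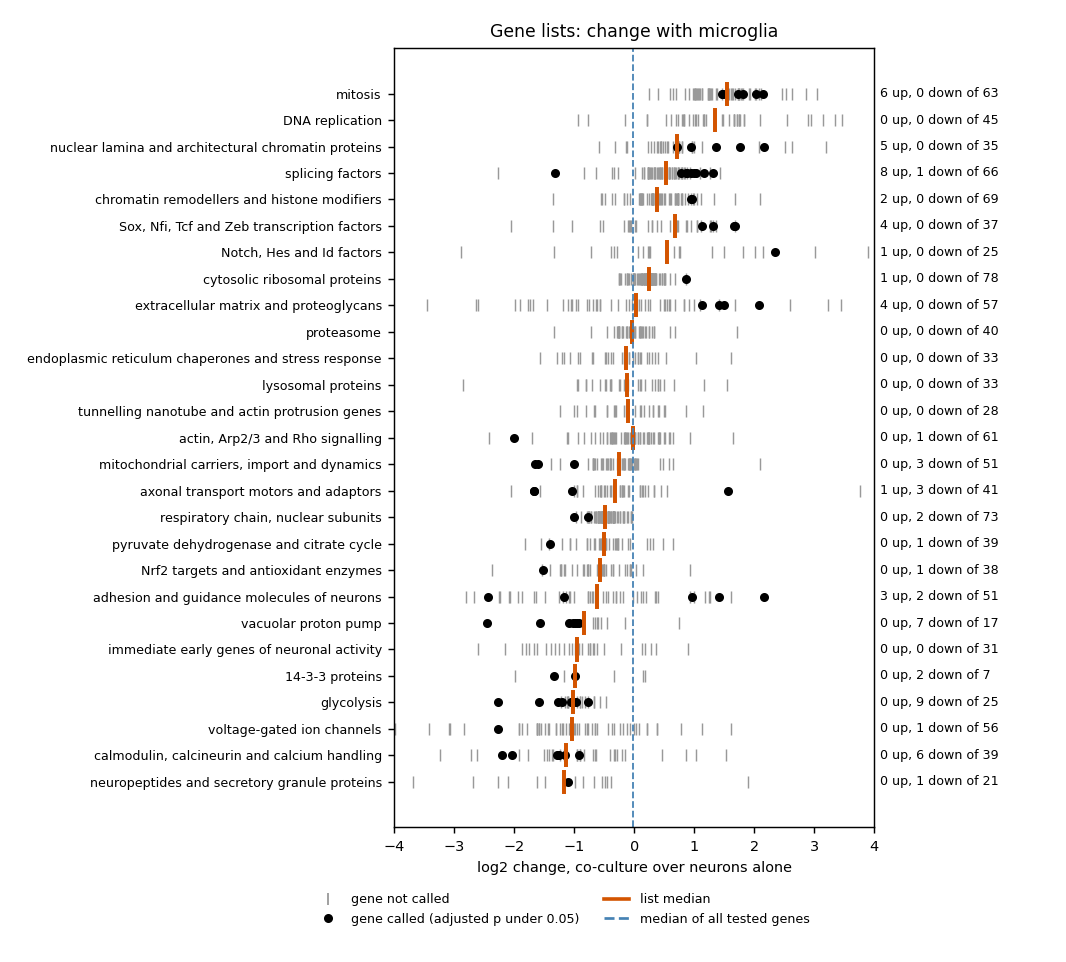
Log2 change with microglia for the tested members of 27 gene lists, 1 line per list. Ticks are genes that did not pass the test, dots are called genes, bars are list medians and the dashed line is the median of all tested genes; genes beyond the ends of the axis are not drawn. The mitosis list lies wholly to the right of 0 and the glycolysis list wholly to the left.

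Genes of cell division were higher with microglia. All 63 tested members of the mitosis list had a positive log2 change, with a median of 1.54, and 6 passed the test, all upwards, against 1.17% of tested genes that rose. The list median was 1.13 in loaded and 1.84 in untreated cultures, a difference that was not tested. The marker of proliferating cells Mki67 (chr7:135689784-135716361 in GRCm38) had 68.1 to 215 CPM (median 152) in co-cultures and 5.85 to 67.0 CPM (median 23.0) in neurons alone. Its co-cultures all lay above neurons alone, and it rose by a log2 change of 2.15 ± 0.40, adjusted p = 0.00443. Aspm, a spindle pole protein, had 54.4 to 158 CPM (median 87.5) in co-cultures and 16.4 to 52.0 CPM (median 25.2) in neurons alone, again without overlap (log2 change 1.73 ± 0.34, adjusted p = 0.00706). Cenpf, a kinetochore protein, had 97.8 to 325 CPM (median 167) in co-cultures and 20.4 to 107 CPM (median 65.5) in neurons alone, overlapping at the edge (log2 change 1.47 ± 0.32, adjusted p = 0.0139). The calls of these genes held when any of the 16 libraries was left out. The other called members were the condensin subunit Ncapd2 (log2 change 1.48 ± 0.36, lost in 5 and in the 14) and the chromosomal passenger proteins Cdca8 (2.02 ± 0.49, lost in 4) and Birc5 (1.82 ± 0.48, lost in 12 and in the 14). Leaving out replicate 4 of the loaded neurons alone, or replicate 2 of the untreated ones, left 3 called mitosis genes.

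The DNA replication list had a median log2 change of 1.34, with 42 of 45 members higher. None passed in edgeR, where 14 had an unadjusted p under 0.05, while DESeq2 and limma-voom each called 6, all higher. The nearest were the DNA ligase Lig1 (log2 change 1.83 ± 0.48, adjusted p = 0.051) and the helicase subunit Mcm7 (1.34 ± 0.37, adjusted p = 0.055). Pclaf, a partner of the replication clamp that was in no list, rose with 97.1 to 337 CPM (median 230.1) in co-cultures and 26.5 to 145 CPM (median 38.8) in neurons alone (log2 change 1.84 ± 0.37, adjusted p = 0.00892). Ticrr, needed to start replication, had 0 counts in all 8 neuron cultures and 596 counts in total over 6 of the 8 co-cultures (lost in 14 and in the 14). It is among the 9 called genes near the limit of detection. It could pass the count filter only through the co-cultures, so its call is not taken as support for a rise. In contrast, Cdkn1a, which encodes the cell cycle inhibitor p21, fell to 173 to 592 CPM (median 225) in co-cultures, against 382 to 895 CPM (median 543) in neurons alone (log2 change -1.04 ± 0.26, adjusted p = 0.0321, lost in 8 and in the 14). Oligodendrocyte-lineage transcripts moved with these genes, as given above, and those precursors are dividing cells; their part in the result was not tested.

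Promoters of the called mitosis genes are shown because the members moved together and share short sequences known from cell cycle promoters: CCAAT, bound by NF-Y, and TTTGAA or TTCGAA, the CHR element of DREAM/MuvB. Each is 250 bases before to 50 after the start, from RefSeq (GRCm38.p6), 5′ to 3′ on the gene's strand, with matches to these motifs on either strand in capitals and all other bases in lower case.
Mki67, chr7:135716330-135716629, minus strand: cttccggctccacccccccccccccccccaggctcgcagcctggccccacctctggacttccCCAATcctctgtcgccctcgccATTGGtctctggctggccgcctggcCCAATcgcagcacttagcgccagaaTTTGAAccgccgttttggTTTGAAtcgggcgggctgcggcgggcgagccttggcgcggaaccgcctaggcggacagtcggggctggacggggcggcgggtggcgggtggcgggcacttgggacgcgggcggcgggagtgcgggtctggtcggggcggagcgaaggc
Aspm, chr1:139454523-139454822, plus strand: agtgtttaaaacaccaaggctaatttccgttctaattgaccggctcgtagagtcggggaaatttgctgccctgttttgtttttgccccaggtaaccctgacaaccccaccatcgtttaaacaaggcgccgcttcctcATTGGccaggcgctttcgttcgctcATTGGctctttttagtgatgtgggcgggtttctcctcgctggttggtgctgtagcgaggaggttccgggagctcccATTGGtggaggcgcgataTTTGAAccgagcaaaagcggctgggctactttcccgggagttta
Cenpf, chr1:189688037-189688336, minus strand: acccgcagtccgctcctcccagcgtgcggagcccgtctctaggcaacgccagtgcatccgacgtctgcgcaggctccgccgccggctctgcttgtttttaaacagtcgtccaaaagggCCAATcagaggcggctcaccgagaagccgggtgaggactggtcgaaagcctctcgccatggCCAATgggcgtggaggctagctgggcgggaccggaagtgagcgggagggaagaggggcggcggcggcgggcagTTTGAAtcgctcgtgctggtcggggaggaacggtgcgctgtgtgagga
Ncapd2, chr6:125191537-125191836, minus strand: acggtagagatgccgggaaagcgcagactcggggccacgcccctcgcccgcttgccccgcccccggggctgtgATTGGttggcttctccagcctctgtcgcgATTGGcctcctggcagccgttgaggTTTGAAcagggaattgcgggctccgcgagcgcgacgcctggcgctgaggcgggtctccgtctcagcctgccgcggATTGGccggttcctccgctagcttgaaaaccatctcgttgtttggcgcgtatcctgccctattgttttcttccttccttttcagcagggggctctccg
Cdca8, chr4:124936868-124937167, minus strand: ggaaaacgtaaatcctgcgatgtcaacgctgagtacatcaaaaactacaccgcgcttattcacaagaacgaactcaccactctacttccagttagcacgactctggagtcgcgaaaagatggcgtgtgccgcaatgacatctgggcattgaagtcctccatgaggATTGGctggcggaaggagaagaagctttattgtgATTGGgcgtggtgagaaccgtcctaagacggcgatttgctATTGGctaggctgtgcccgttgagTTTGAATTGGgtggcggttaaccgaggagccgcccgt
In Cdca8 the TTTGAA overlaps an ATTGG, which is CCAAT on the other strand. The window of Birc5 held neither motif. Over the mitosis list, 40 of 55 promoters (72.7%) held CCAAT, against 38.9% of 10453 promoters of tested genes, and 42 of 55 (76.4%) held TTTGAA or TTCGAA, against 13.1%. In the DNA replication list 23 of 37 promoters (62.2%) held CCAAT and 7 of 37 (18.9%) held TTTGAA or TTCGAA. A match is a stretch of letters, not a measured binding site.

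Proteins of the nuclear lamina and chromatin architecture were higher as well. The list's median log2 change was 0.71, 31 of 35 members were higher, and 5 rose, against 1.17% of all tested genes. Lmnb1, which encodes lamin B1 of the nuclear envelope, had 328 to 664 CPM (median 500.0) in co-cultures and 32.7 to 209 CPM (median 116) in neurons alone. Its groups did not overlap, and its log2 change was 2.17 ± 0.31, adjusted p = 0.000501, called in every alternative tried. The lamin-binding protein Tmpo (log2 change 1.76 ± 0.36), the DNA-bending protein Hmgb2 (1.36 ± 0.30), the histone variant H2az1 (0.94 ± 0.23, lost in 6) and the replacement histone gene H3f3b (0.71 ± 0.19, lost in 13 and in the 14) also rose. Outside the lists, the DNA-binding protein Dek (0.96 ± 0.21), the histone chaperones Nasp (1.2 ± 0.28) and Rbbp4 (0.77 ± 0.20, lost in 13 and in the 14) and the linker histone H1f4 (1.27 ± 0.29, lost in 1) rose too; these were chosen after their values were seen. Of 69 chromatin remodellers and histone modifiers, 59 were higher with a median of 0.38, and 2 rose (1.17% of all tested genes did). Leaving out 1 library gave 0 to 4 called genes of this list, with 0 without loaded co-culture replicate 1, untreated co-culture replicate 2, loaded replicate 4 or untreated replicate 2 or 3 of neurons alone, and 0 without the microglia-rich pair. Kmt2a, a methyltransferase of histone H3 lysine 4, had 181 to 355 CPM (median 226) in co-cultures and 63.6 to 171 CPM (median 145) in neurons alone, without overlap (log2 change 0.94 ± 0.24, adjusted p = 0.0334, lost in 8 and in the 14). The corepressor Rere rose too (0.96 ± 0.24, lost in 8 and in the 14).

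Splicing factors were mostly higher. Of 66 tested, 59 were higher with a median log2 change of 0.53, 8 rose and 1 fell. Over all tested genes 1.17% rose and 0.951% fell. Hnrnpa3, an RNA-packaging protein, had 268 to 445 CPM (median 409) in co-cultures and 155 to 259.6 CPM (median 211) in neurons alone. No co-culture fell within the range of neurons alone (log2 change 0.87 ± 0.20, adjusted p = 0.0168). Srek1, a regulator of SR proteins, had 94.8 to 299.9 CPM (median 206) in co-cultures and 55.7 to 119.9 CPM (median 86.9) in neurons alone, with overlap through its lowest co-culture (log2 change 1.31 ± 0.24, adjusted p = 0.00464). Srrm1 (0.94 ± 0.22, lost in 1), Srsf3 (0.77 ± 0.19, lost in 6 and in the 14), Srsf1 (1.00 ± 0.25, lost in 8), Hnrnpd (0.88 ± 0.22, lost in 10), Pnisr (1.04 ± 0.28, lost in 12 and in the 14) and Qk (1.17 ± 0.30, lost in 8 and in the 14) also rose; the product of Qk, quaking, is an RNA-binding protein known for its role in myelinating glia. Snrpn, the neuronal member of the SmB/N family, fell to 89.4 to 174 CPM (median 121) in co-cultures, against 97.2 to 618 CPM (median 262) in neurons alone (log2 change -1.33 ± 0.32, adjusted p = 0.0282, lost in 7 and in the 14). Rises in other steps of RNA handling, chosen after their values were seen, were those of the cleavage and polyadenylation factors Cstf2 (1.37 ± 0.27) and Fip1l1 (1.05 ± 0.23), the deadenylase Cnot6 (1.31 ± 0.31, lost in 4 and in the 14) and the paraspeckle protein Sfpq (0.88 ± 0.20). The splicing count was 4 without replicate 2 of the loaded co-cultures, replicate 4 of the loaded neurons alone or replicate 2 of the untreated neurons alone.

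Of 78 cytosolic ribosomal protein genes, 63 were higher, but the median log2 change was 0.24 and 1 passed, Rps3a1 (0.86 ± 0.22, lost in 8 and in the 14). The list median was 0.04 in loaded and 0.39 in untreated cultures, a difference that was not tested. Nucleolar genes were in no list; among those chosen after their values were seen, Tcof1, which drives ribosomal RNA transcription, had 41.7 to 87.7 CPM (median 64.3) in co-cultures and 4.38 to 35 CPM (median 16.1) in neurons alone, without overlap (log2 change 1.78 ± 0.39, adjusted p = 0.0133). The RNA polymerase I terminator Ttf1 (1.95 ± 0.49, lost in 8 and in the 14), the histone chaperone Npm3 (1.23 ± 0.28), the helicase Ddx21 (0.96 ± 0.26, lost in 10) and the snoRNP protein Nop56 (1.13 ± 0.30, lost in 13) rose with it. Translation factors had a median log2 change of -0.01 over 44 genes, which turned to 0.20 under library totals, and 1 fell, Eef1a2 (-2.02 ± 0.37), the elongation factor of neurons and muscle.

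The list of Sox, Nfi, Tcf and Zeb transcription factors, which also holds Zfp462 from outside these families, had a median log2 change of 0.69 over 37 tested. Of its members 4 rose, Zfp462 among them, against 1.17% of all tested genes. Sox6, a regulator of glial precursors and interneurons, had 167 to 594 CPM (median 273) in co-cultures and 52.4 to 202 CPM (median 92.1) in neurons alone (log2 change 1.67 ± 0.32, adjusted p = 0.00706). Zfp462, a chromatin-bound zinc finger protein, had 99.3 to 291 CPM (median 181) in co-cultures and 23.8 to 133 CPM (median 56.8) in neurons alone (log2 change 1.67 ± 0.30, adjusted p = 0.00378). In both genes the groups overlapped at the edge. The repressor genes Zeb1 (1.32 ± 0.28) and Zeb2 (1.14 ± 0.28, lost in 5 and in the 14) rose as well. Of 25 Notch, Hes and Id genes 1 rose (1.17% of all tested genes did). This was Dll3, an inhibitory Notch ligand, with 29.8 to 93.3 CPM (median 67.2) in co-cultures and 1.03 to 53.1 CPM (median 7.57) in neurons alone (log2 change 2.35 ± 0.60, adjusted p = 0.0351, lost in 8 and in the 14). Among 45 Wnt, BMP and TGF-β genes Bmp4, a ligand, rose (1.72 ± 0.35, lost in the 14), while the ligand Tgfb2 (-1.73 ± 0.46, lost in 12 and in the 14) and the β-catenin scaffold Apc (-0.84 ± 0.22, lost in 11 and in the 14) fell. The signalling kinase Map3k1 rose (2.01 ± 0.44) and the JNK scaffold Mapk8ip1 fell (-1.56 ± 0.30), each in every alternative. The receptor tyrosine kinase list held 2 rises, the adaptor Gab1 (2.03 ± 0.49, lost in 4 and in the 14) and the factor Etv1 (1.56 ± 0.41, lost in 12).

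The 15 largest rises beyond the lists set aside held several genes known from oligodendrocytes or their precursors that those lists did not name. Pllp, a myelin membrane protein, had 100 to 367 CPM (median 284) in co-cultures and 7.19 to 115 CPM (median 48.2) in neurons alone (log2 change 2.42 ± 0.43, adjusted p = 0.00492). Zfp488, a regulator of oligodendrocyte differentiation, had 20.6 to 132 CPM (median 37.6) in co-cultures and 2.87 to 22.1 CPM (median 8.03) in neurons alone (log2 change 2.49 ± 0.52, adjusted p = 0.00983, lost in the 14). The tetraspanin Cd9 (2.24 ± 0.50, lost in 2), the serine incorporator Serinc5 (2.23 ± 0.46), the cadherin Pcdh15 (2.21 ± 0.54, lost in 9 and in the 14) and the proteoglycan Vcan (2.07 ± 0.47, lost in 7 and in the 14) are likewise found in that lineage.

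Others of the 15 act at membranes and in signalling. Plppr1, a growth-promoting phosphatase-like membrane protein, had the largest rise, with 14.5 to 153 CPM (median 66.8) in co-cultures and 4.74 to 24.4 CPM (median 10.7) in neurons alone (log2 change 2.57 ± 0.44, adjusted p = 0.00292). Only its lowest co-culture reached into the range of neurons alone. Sh3bp4, an endocytic adaptor, had 67.3 to 302 CPM (median 88.6) in co-cultures and 10.3 to 62.0 CPM (median 26.3) in neurons alone, without overlap (log2 change 2.10 ± 0.38, adjusted p = 0.00443). The guidance molecules Sema3d (2.50 ± 0.60, lost in 8 and in the 14) and Sema5a (2.16 ± 0.52, lost in 8 and in the 14), the kinase Stk32a (2.53 ± 0.63, lost in 7 and in the 14) and the transcription cofactor Gabpb2 (2.21 ± 0.59, lost in 12 and in the 14) rose in the fit of all libraries.

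The smallest p among rises outside the oligodendrocyte list belonged to Marcks, a protein kinase C substrate that binds actin at the membrane. Marcks (chr10:37133375-37138920) had 999 to 2383 CPM (median 1498) in co-cultures and 360.0 to 742 CPM (median 550.4) in neurons alone, with every co-culture above every culture without microglia (log2 change 1.6 ± 0.23, adjusted p = 0.000484). Its relative Marcksl1 rose (1.24 ± 0.28), and Stmn3, a tubulin-binding growth protein in the same list, fell (-1.67 ± 0.33). Cilk1, a kinase of the primary cilium, had 80.5 to 256 CPM (median 112) in co-cultures and 23.1 to 51.0 CPM (median 36.9) in neurons alone, without overlap (log2 change 1.82 ± 0.27, adjusted p = 0.000643); it was the called gene among 33 cilium genes. Lima1, an actin-bundling protein, had 108 to 277 CPM (median 177) in co-cultures and 4.99 to 93.6 CPM (median 47.6) in neurons alone, also without overlap (log2 change 1.94 ± 0.40, adjusted p = 0.0102). Of 57 matrix genes 4 rose (1.17% of all tested genes did): the membrane protease Mmp15 (1.5 ± 0.32), the heparan sulfatase Sulf2 (1.14 ± 0.26, lost in 1), Vcan and the collagen Col11a1 (1.41 ± 0.34, lost in 4 and in the 14), with a list median of 0.02. Lists of adhesion and guidance molecules moved both ways, with Cntn1 (0.95 ± 0.22, lost in 1 and in the 14), Sema5a and the netrin receptor Unc5c (1.42 ± 0.35, lost in 5 and in the 14) higher and Thy1 and Nptn (-1.17 ± 0.25, lost in the 14) lower.

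**Figure D3:**
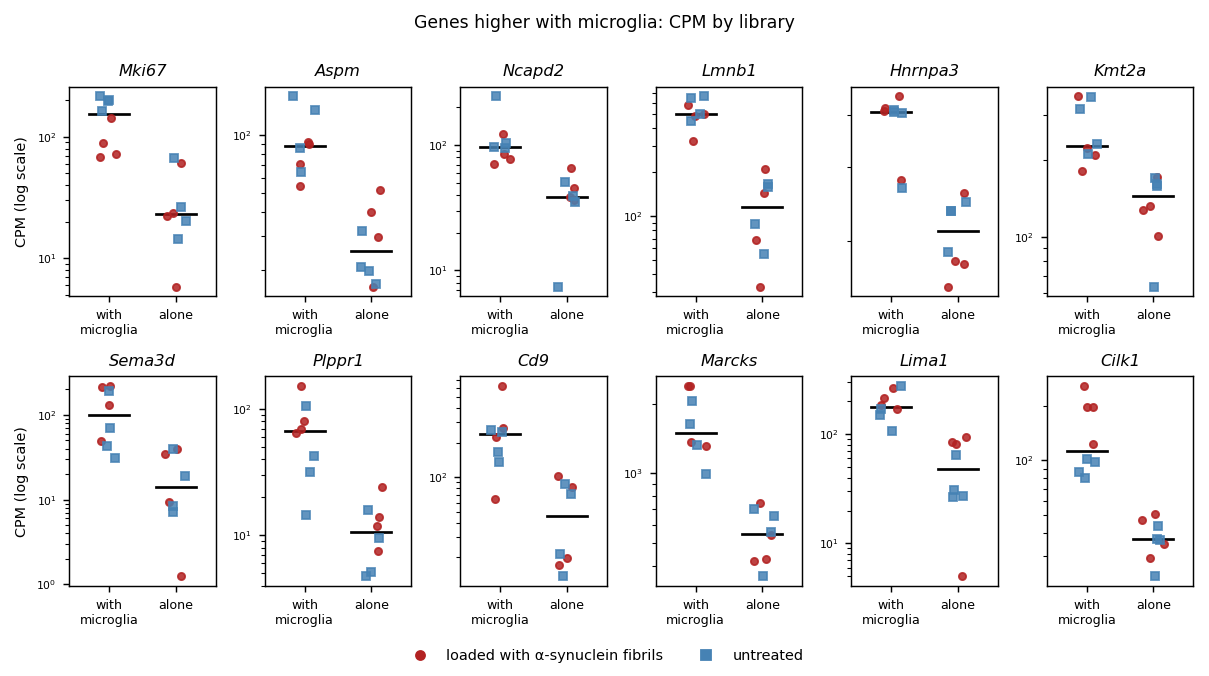
CPM by library (log scale) of 12 genes that rose with microglia, with co-cultures on the left of each panel and neurons alone on the right. Circles are fibril-loaded cultures, squares untreated ones and bars the medians of 8; in Mki67, Lmnb1, Marcks and Cilk1 the groups do not overlap, while Plppr1, Sema3d and Cd9 overlap at the edge.

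Glycolytic genes were lower with microglia as a whole list. All 25 tested genes had a negative log2 change, between -2.28 and -0.47 with a median of -1.02, and 9 fell, against 0.951% of tested genes. Pgam1, phosphoglycerate mutase, had 272 to 396 CPM (median 306) in co-cultures and 449 to 1023 CPM (median 589.6) in neurons alone, and no co-culture reached the lowest culture without microglia (log2 change -1.03 ± 0.20, adjusted p = 0.00706). Gpi1, glucose-6-phosphate isomerase, had 95.2 to 295 CPM (median 122) in co-cultures and 206 to 853 CPM (median 407) in neurons alone (log2 change -1.59 ± 0.29, adjusted p = 0.00443). Aldoa, the main aldolase outside liver, had 112 to 398 CPM (median 153) in co-cultures and 265 to 863 CPM (median 379) in neurons alone (log2 change -1.21 ± 0.25, adjusted p = 0.00983). In both of these the groups overlapped in part. Eno2, the neuronal enolase, changed most (-2.28 ± 0.47), and Tpi1 (-1.28 ± 0.30, lost in the 14), Hk1 (-1.06 ± 0.25, lost in 5), Gapdh (-0.97 ± 0.23, lost in 6), Pfkm (-1.02 ± 0.26, lost in 9 and in the 14) and Pgk1 (-0.76 ± 0.20, lost in 12 and in the 14) also fell. The glucose transporters Slc2a1 and Slc2a3 and the lactate dehydrogenases Ldha and Ldhb had log2 changes between -1.12 and -0.57 that did not pass. Without replicate 2 or replicate 3 of the loaded co-cultures 5 genes of the list were called, and without the 2 microglia-rich co-cultures 7. Under library totals 4 were called and the median was -0.77. In the promoter window described above, 12 of 23 glycolytic genes (52.2%) held ACGTG, the core bound by HIF, on either strand, as did 4 of the 9 called ones (44.4%), against 25.9% of all promoters of tested genes.

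The steps after glycolysis moved less far. Pdhb, a subunit of pyruvate dehydrogenase, which links glycolysis to the citrate cycle, had 37.4 to 99.4 CPM (median 59.7) in co-cultures and 139 to 219 CPM (median 171) in neurons alone. The groups lay apart, the log2 change was -1.41 ± 0.25, adjusted p = 0.00292, and the call held in every alternative. It was the single call among 39 genes of pyruvate dehydrogenase and the citrate cycle. The median of that list was -0.51, with -0.72 in loaded and -0.30 in untreated cultures. All 73 nuclear-encoded subunits of the respiratory chain had a negative log2 change, but the median was -0.49 and 2 fell (0.951% of all tested genes did). These were the ATP synthase subunit gene Atp5g1 (-1.01 ± 0.21) and Cox5a (-0.77 ± 0.20, lost in 15 and in the 14). The respiratory chain median was -0.72 in loaded and -0.29 in untreated cultures. Neither this difference nor that of the citrate cycle list was tested. Of 51 mitochondrial carrier, import and shape genes 3 fell (0.951% of all tested genes did), in every alternative: the outer membrane channel Vdac1 (-1.01 ± 0.20), the aspartate-glutamate carrier Slc25a12 (-1.61 ± 0.33) and the cristae protein Chchd10 (-1.65 ± 0.36). Slc25a12 had 10.9 to 69.2 CPM (median 36.6) in co-cultures and 76.0 to 168 CPM (median 108) in neurons alone, without overlap. The ketone body enzyme Oxct1 (-1.06 ± 0.24, lost in the 14) and basigin, Bsg (-1.10 ± 0.25, lost in 1), a partner of lactate transporters, fell too and were chosen after their values were seen. Neuronal identity transcripts moved with these genes, with 7 of 22 called, all lower, and a median log2 change of -1.65; their part in the result was not tested.

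**Figure D4:**
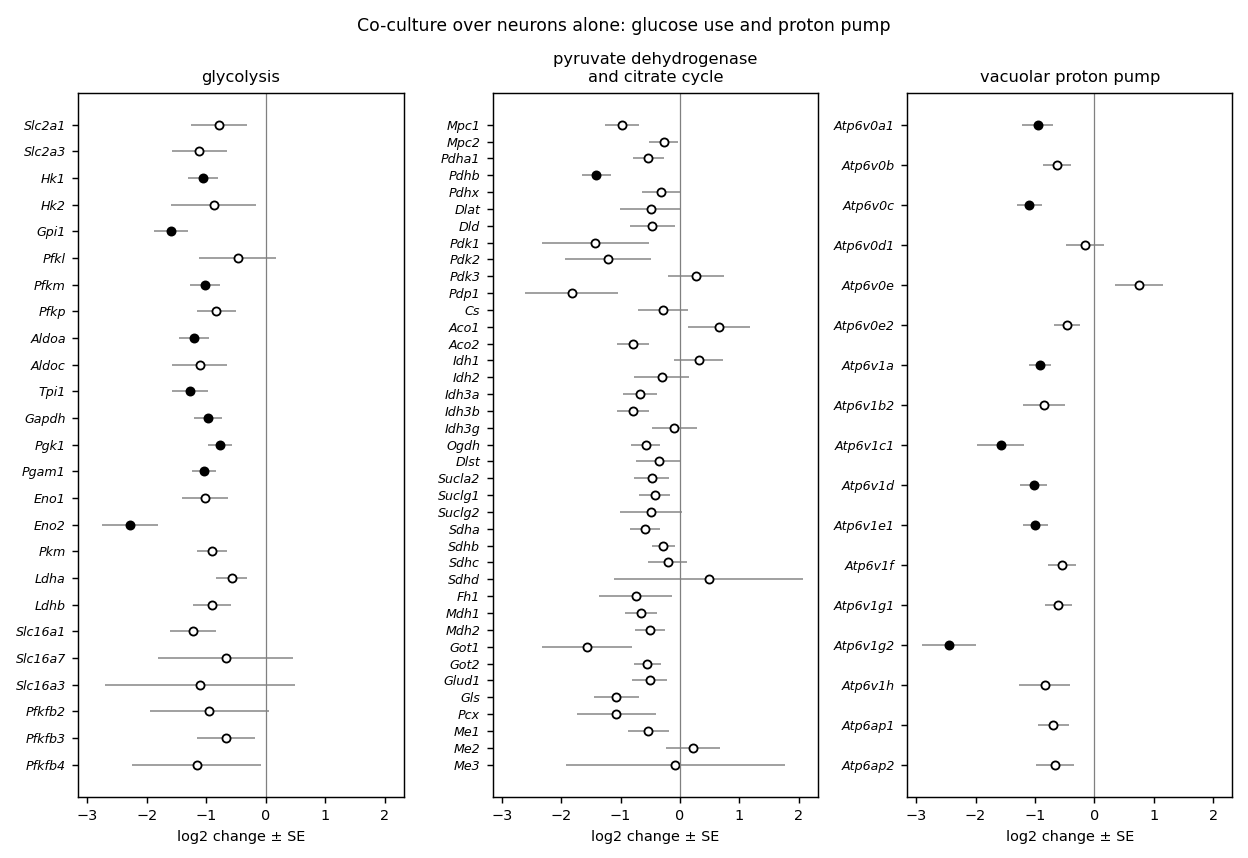
Log2 change with microglia (co-culture over neurons alone) with its standard error for each tested gene of glycolysis, of pyruvate dehydrogenase and the citrate cycle, and of the vacuolar proton pump. Filled circles are called genes; every glycolytic gene lies left of 0, while Atp6v0e of the pump and Pdk3, Aco1, Idh1, Sdhd and Me2 of the citrate list lie right of it.

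Of 17 subunits and accessory proteins of the vacuolar proton pump 16 were lower, with a median log2 change of -0.83, and 7 fell, against 0.951% of all tested genes. Atp6v1a, the catalytic subunit, had 246 to 379 CPM (median 303) in co-cultures and 402 to 728 CPM (median 568) in neurons alone. Atp6v0c, the ring that carries protons across the membrane, had 266 to 701 CPM (median 434) in co-cultures and 729.5 to 1183 CPM (median 1007) in neurons alone. In both the groups lay fully apart, with log2 changes of -0.91 ± 0.18, adjusted p = 0.00892 and -1.10 ± 0.21, adjusted p = 0.00536. Atp6v1g2, the neuronal form of subunit G, changed most, with 10.9 to 85 CPM (median 33.5) in co-cultures and 35.2 to 413 CPM (median 263) in neurons alone (log2 change -2.45 ± 0.45, adjusted p = 0.00706). Atp6v1d (-1.02 ± 0.23) and Atp6v1e1 (-1.0 ± 0.21, lost in the 14) fell in every leave-one-out fit, and Atp6v1c1 (-1.58 ± 0.40, lost in 10 and in the 14) and Atp6v0a1 (-0.96 ± 0.26, lost in 12 and in the 14) fell in the fit of all libraries. Without the 2 microglia-rich co-cultures 4 subunits were called. CACGTG, bound by TFEB, stood in 4 of 13 promoters of the pump (30.8%), in 1 of 6 of its called members (16.7%) and in 10 of 27 of lysosomal proteins (37%), against 10.2% of all. The lysosomal proteins themselves gave no call among 33 genes, with a median of -0.13 that turned to 0.07 under library totals. There, 6 genes had an unadjusted p under 0.05, and DESeq2 called 2 and limma-voom 0.

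Other parts of protein turnover held few called genes, beside 2.12% of all tested genes called in either direction. A single call in a list of 33 to 41 genes is near that share. Sqstm1, the autophagy receptor p62, had 104 to 220.3 CPM (median 160.2) in co-cultures and 204 to 562 CPM (median 444) in neurons alone, overlapping at the edge (log2 change -1.34 ± 0.24, adjusted p = 0.00339), and was the call among 33 autophagy genes. Srxn1, sulfiredoxin, had 152 to 677 CPM (median 223) in co-cultures and 365 to 1910.5 CPM (median 788) in neurons alone (log2 change -1.53 ± 0.35, adjusted p = 0.0248, lost in 5 and in the 14), and was the call among 38 Nrf2 targets and antioxidant enzymes. The median of that list was -0.58, with -1.09 in loaded and -0.15 in untreated cultures; this difference was not tested. Its adjusted p was 0.0593 with loaded co-culture replicate 1 left out and 0.112 without both microglia-rich co-cultures. The heme transporter Slc48a1 (-1.53 ± 0.33, lost in the 14) fell and was chosen after its value was seen. The neuronal ubiquitin hydrolase Uchl1 (-1.36 ± 0.30) and the ligase Rnf14 (-1.02 ± 0.26, lost in 9 and in the 14) fell among 38 ubiquitin genes. Among 40 proteasome genes none passed, with 1 at an unadjusted p under 0.05 and no call by DESeq2 or limma-voom. The cochaperone Fkbp4 rose (0.90 ± 0.23, lost in 13 and in the 14) among 41 chaperones.

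Motors and cargo adaptors of axonal transport fell in part, with 3 of 41 called lower and 1 higher, against 0.951% and 1.17% of all tested genes. Kif5a, a neuronal kinesin heavy chain, had 67.3 to 312 CPM (median 144) in co-cultures and 428 to 659 CPM (median 485) in neurons alone, without overlap (log2 change -1.67 ± 0.27, adjusted p = 0.00131). Kif5c, another kinesin heavy chain, had 64.9 to 275 CPM (median 129) in co-cultures and 226 to 857 CPM (median 504) in neurons alone (log2 change -1.67 ± 0.30, adjusted p = 0.00365). The dynein light chain Dynlt3 fell (-1.04 ± 0.25, lost in 2 and in the 14), and the adaptor Hap1, a huntingtin partner, rose (1.57 ± 0.32). The median over 41 genes of the list was -0.33. Tubulins Tubb2a (-1.15 ± 0.24), Tubb3 (-1.64 ± 0.36, lost in 1 and in the 14) and Tuba4a (-2.15 ± 0.51, lost in 10) fell among 21 tested, the microtubule stabiliser Map6 (-1.58 ± 0.39, lost in 8 and in the 14) and the neurofilament gene Nefm (-2.01 ± 0.49, lost in 12 and in the 14) among 32. Actr3b, the brain form of Arp3, had 17.4 to 41.7 CPM (median 29.5) in co-cultures and 73.0 to 236 CPM (median 103) in neurons alone, without overlap (log2 change -2.0 ± 0.30, adjusted p = 0.000827), and was the call among 61 actin genes. The golgi GTPases Rab6b (-1.52 ± 0.31, lost in the 14) and Rab6a (-0.81 ± 0.22, lost in 12 and in the 14) fell as well.

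Of 7 14-3-3 genes, adaptors that bind phosphorylated proteins, 2 fell (0.951% of all tested genes did): Ywhag had 109.5 to 266 CPM (median 209) in co-cultures and 328 to 760.0 CPM (median 507) in neurons alone, without overlap (log2 change -1.34 ± 0.23, adjusted p = 0.00292), and Ywhaz fell as well (-0.99 ± 0.24, lost in 7 and in the 14). Calmodulin, calcineurin and calcium handling genes had a median log2 change of -1.13 over 39 tested, and 6 fell, against 0.951% of all tested genes. Camk2n1, an inhibitor of CaM kinase II, had 342 to 1074 CPM (median 490.1) in co-cultures and 887 to 3432 CPM (median 2357) in neurons alone, with overlap (log2 change -2.03 ± 0.25, adjusted p = 7.73e-05). The calcineurin subunits Ppp3ca (-1.15 ± 0.24) and Ppp3r1 (-1.29 ± 0.33, lost in 11 and in the 14), the calmodulin gene Calm3 (-0.92 ± 0.21) and the calcium pump Atp2b2 (-2.20 ± 0.49, lost in 6) fell beside it. Without replicate 4 of the loaded neurons alone 3 genes of this list were called. The sodium pump subunit Atp1b1 had 142 to 1018 CPM (median 551) in co-cultures and 580.1 to 2387 CPM (median 2010.0) in neurons alone and fell (log2 change -1.84 ± 0.36, adjusted p = 0.0102), while the pump modulator Fxyd6 rose (1.59 ± 0.27). Voltage-gated channel genes had a median log2 change of -1.03 over 56 tested. Immediate early genes had a median of -0.96 over 31 with none called, 6 at an unadjusted p under 0.05, and none called by DESeq2 or limma-voom.

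Several of the 15 largest falls belong to receptor and second messenger signalling. Chrm1, the M1 muscarinic acetylcholine receptor, had 4.1 to 24.2 CPM (median 7.70) in co-cultures and 13.3 to 153 CPM (median 83.7) in neurons alone, overlapping in a few libraries (log2 change -2.77 ± 0.52, adjusted p = 0.00536). Lynx1, a membrane-anchored modulator of nicotinic receptors, had 0 to 22.2 CPM (median 10.4) in co-cultures and 13.8 to 111 CPM (median 86.4) in neurons alone (log2 change -2.87 ± 0.65, adjusted p = 0.0208, lost in 1 and in the 14). Prkar1b, a neuronal regulatory subunit of protein kinase A, had 34.3 to 194 CPM (median 74.2) in co-cultures and 160.3 to 631 CPM (median 510.1) in neurons alone (log2 change -2.24 ± 0.36, adjusted p = 0.00182). Each of the last pair overlapped between groups. Outside the rule for named genes, the phosphodiesterase Pde2a (-2.0 ± 0.42, lost in the 14), the G protein Gnao1 (-1.29 ± 0.31, lost in 5 and in the 14) and the adenosine receptor Adora1 (-1.24 ± 0.30, lost in 7 and in the 14) fell and were chosen after their values were seen; the calls of Gnao1 and Adora1 were lost without replicate 4 of the loaded neurons alone (adjusted p = 0.0848 and 0.0613).

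The remaining large falls were of neuronal genes with varied roles. Thy1 (chr9:44043384-44048579), a surface glycoprotein of mature neurons, had the smallest p of all falls, with 17.1 to 71.8 CPM (median 42.3) in co-cultures and 109.8 to 353 CPM (median 261) in neurons alone. All co-cultures were below all neurons alone, with a log2 change of -2.43 ± 0.29, adjusted p = 6.92e-05. Camta2, a calmodulin-binding transcription activator, had 2.95 to 26.2 CPM (median 14.4) in co-cultures and 44.4 to 149 CPM (median 56.7) in neurons alone, also without overlap (log2 change -2.35 ± 0.41, adjusted p = 0.00292). Spryd3, a SPRY domain protein, had 13.7 to 50 CPM (median 30.1) in co-cultures and 67.2 to 241 CPM (median 133) in neurons alone, and did not overlap either (log2 change -2.17 ± 0.34, adjusted p = 0.00102). The Cdk5 activator Cdk5r2 (-2.70 ± 0.60, lost in 8 and in the 14), the synaptotagmin Syt13 (-2.50 ± 0.49), the Arf6 exchange factor Psd (-2.24 ± 0.41) and the transcription factor Mef2c (-2.18 ± 0.51, lost in 10 and in the 14) fell too. Neuropeptide and granule genes had a median log2 change of -1.17 over 21, and the processing enzyme Cpe fell (-1.10 ± 0.23). The tetraspanin Cd151 fell (-1.96 ± 0.34) while Cd9 rose.

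**Figure D5:**
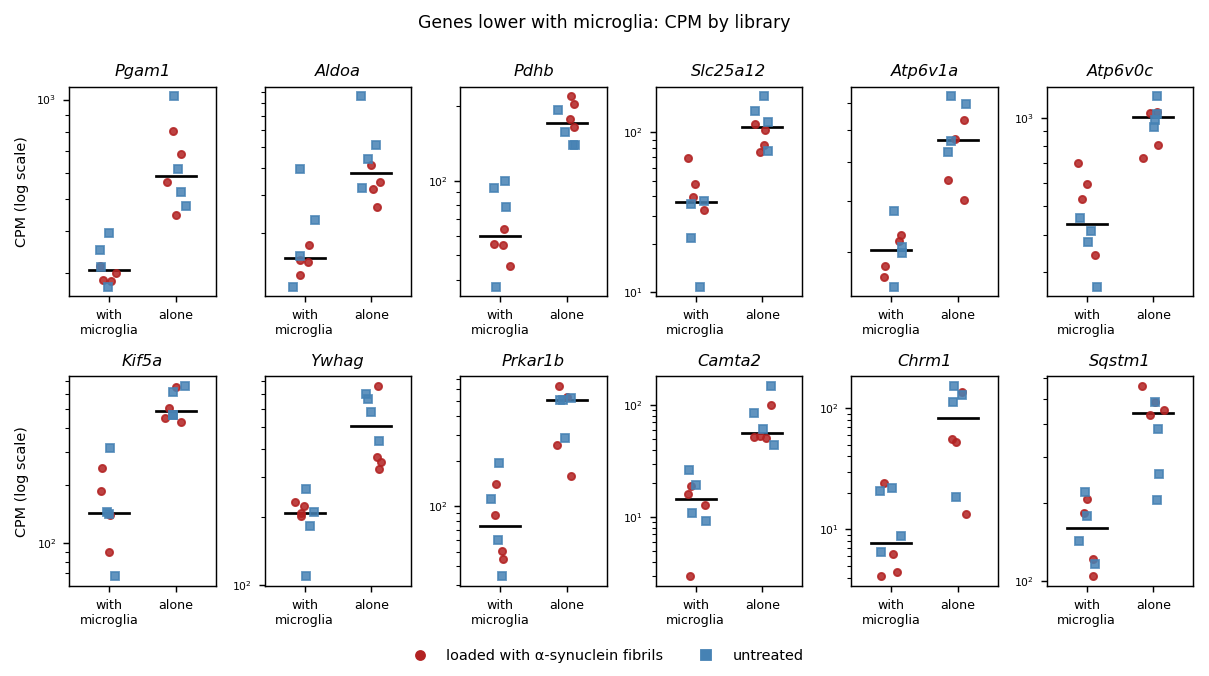
CPM by library (log scale) of 12 genes that fell with microglia, with co-cultures on the left of each panel and neurons alone on the right. Circles are fibril-loaded cultures, squares untreated ones and bars the medians of 8; Pdhb, Atp6v1a, Kif5a and Ywhag show no overlap between the groups, and Chrm1 and Prkar1b show overlap.

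Several lists held no called gene in edgeR. Among 29 interferon response genes the median log2 change was 0.56 with 2 at an unadjusted p under 0.05, and -0.14 without the 2 microglia-rich co-cultures; DESeq2 called 0 and limma-voom 3. Among 29 inflammatory cytokine and NF-κB genes the median was 0.04, with 3 at an unadjusted p under 0.05, 1 call by DESeq2 and 0 by limma-voom. Among 28 genes of tunnelling nanotubes, thin membrane channels between cells, and actin protrusions, the median was -0.11, or 0.10 under library totals; 4 had an unadjusted p under 0.05, and DESeq2 called 0 and limma-voom 1. Cholesterol and fatty acid synthesis had a median of -0.02 over 36 genes, or 0.20 under library totals, with 0 at an unadjusted p under 0.05 and none called by DESeq2 or limma-voom. Endoplasmic reticulum chaperones had a median of -0.14 over 33 genes, or 0.07 under library totals, with 6 at an unadjusted p under 0.05; DESeq2 called 4 and limma-voom 3. Small nucleolar RNA host genes and nuclear noncoding RNAs had a median of 0.16 over 26 genes, 0 at an unadjusted p under 0.05, 0 calls by DESeq2 and 1 by limma-voom. The 15 tested microglial identity genes had a median log2 change of 4.70, or 0.64 without the 2 microglia-rich libraries, and none was called in edgeR; 7 had an unadjusted p under 0.05, and DESeq2 called 1 and limma-voom 0.

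Of the 279 genes, 9 were near the limit of detection, and their fitted changes are not given. C1ra, Sult2b1, Ehd2, Plekhg4 and Zfp994 were lost in 14, 1, 8, 11 and 11 of the leave-one-out fits and all 5 in the 14, as was Gm19897; Kctd10 held in all of these fits. C1ra, Kctd10 and Sult2b1 had 0 counts in all 8 co-cultures and 439, 1417 and 770 counts in total in neurons alone, where 2 libraries each were also at 0. Ehd2, Plekhg4 and Zfp994 had 1 count each over the co-cultures and 443, 828 and 437 over neurons alone. The predicted gene Gm19897 had 1444 counts in co-cultures and 5 in neurons alone, and Ticrr, given above, was also among the 9. Counting was by gene symbol with an unstated strand setting, and 29 of 273 called genes with a position share their last 1000 bases with another tested gene, 27 of them on the opposite strand. Among those described here these are Atp1b1, Gapdh, Psd, Sulf2, Tpi1, Tuba4a, Sqstm1, Slc48a1, Dek, Nop56, Pclaf, Cstf2, Fip1l1, Kctd10, Ticrr and, on the same strand, Ppp3r1; no such partner was itself called. Reads of Apc, Atp6v0c, Cd9, Gapdh, Marcksl1, Nasp, Npm3, Pgam1, Pgk1 and Tubb2a could also be split with annotated pseudogenes, so their values are less certain.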

How the data were processed

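The files held whole-number read counts per gene, deposited by the authors as a table of raw counts for the 16 libraries (16934 genes). STAR, Partek, DESeq2 and the build mm10 are named per the submitters' processing notes; which tool counted, on which strand, with which gene models, and whether molecular identifiers served is not given in the sources used here. Another deposited table, of normalized values, was not used here. Libraries were grouped by their titles. Counts were filtered with filterByExpr (minimum count 10, minimum total 15), scaled by TMM and tested with edgeR 4.0.16 (R 4.3.3; glmQLFit, robust; co-culture plus fibril state) over 13139 genes, with Benjamini-Hochberg adjustment at 0.05. CPM values use TMM-scaled library sizes, the standard error is the log2 change divided by the square root of F, and log2 CPM used a prior count of 2. Alternatives were run with DESeq2 1.42.0 and limma-voom (limma 3.58.1) among 28 in all. Positions come from GENCODE M21 (GRCm38), where 96.2% of symbols matched once, and promoters from RefSeq GRCm38.p6.

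The members and lists were chosen with earlier results of these data known. Named genes were, beyond the oligodendrocyte-lineage and synaptic lists, called genes with mean log2 CPM above 2 and 1 direction in both states: the 15 largest rises, the 15 largest falls, up to 3 called members of smallest p from each process list with at least 2 called, and the 5 most abundant genes of each cell type list; predicted models were skipped. Other called genes, among them single calls of a list, were named after their values were seen. Total counts of 6511516 to 13986374 per library limit precision for genes of few counts. Levels were not compared between genes, since 3′ tag counts are not per length. A few called genes are not reported here.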

Additional observations from a re-analysis of the deposited data

Results flagged for a closer look

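In 190 checks of 8 libraries each, 16 held a library that stood apart from the other 7 of its group by Dixon's criterion; chance alone gives about 1 in 20. All but 1 were low values.

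In co-cultures, the untreated replicate 1 was low for Ywhag (110 CPM), Tubb2a (247 CPM), Chchd10 (27 CPM) and Tuba4a (3.33 CPM), all genes that fell with microglia. The same library gave the 1 high value, 0.0793 CPM for Ehd2, which is a single count. Replicate 1 of the loaded co-cultures was low for Vdac1 (167 CPM) and Rnf14 (41.5 CPM). These 2 libraries were also the ones rich in microglial transcripts; the part of those transcripts in the low values was not tested. The untreated co-culture replicate 4 was low for Srek1 (94.8 CPM) and Lynx1 (0 CPM). Loaded co-culture replicate 2 was low for Hap1 (34 CPM) and for the summed inhibitory neuron list (36.6 CPM).

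In neurons alone, loaded replicate 3 was low for Vdac1 (404 CPM) and loaded replicate 2 for Lynx1 (13.8 CPM). The untreated replicates 1, 3 and 4 were low for Hap1 (11.7 CPM), Sema5a (1.67 CPM) and the summed vascular and fibroblast list (0.294 CPM), 1 each in that order.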

How the results depend on the processing

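The 279 changed genes became 427 under library totals, 845 with DESeq2, 630 with limma-voom and 154 without the 2 microglia-rich libraries; the cause was not tested. Leaving out 1 library gave 175 (loaded neurons alone replicate 4) to 318 (loaded neurons alone replicate 2), and 182 without untreated neurons alone replicate 2. Other settings gave 193 (test against a fold of 1.2) to 325 (mean CPM of at least 10). Interactions numbered 195 with DESeq2 and 0 in the other alternatives that fitted one; the group-means fit and that without the fibril covariate had none to test. With the replicate number as a block 379 genes changed, 262 of them among the 279. Same-numbered libraries correlated at -0.111 to 0.217, above 0.1 in 4 of 24 pairs. Libraries of different number and group correlated at -0.226 to 0.155. The main test did not pair the samples by number, and these correlations do not settle whether it should have. Of the 16 libraries, 9 correlated best with one of their own number. The library codes in the titles also run in blocks by replicate number, each block holding all 4 groups. Both microglia-rich libraries are replicate 1. The labels do not say what these blocks stand for, and the main test leaves them out, so a shared preparation of same-numbered libraries remains possible. Of 87 named genes 49 kept their call in all 28 alternatives, and none reversed. List medians moved beyond the spread in 12 of 1539 cases, and library totals turned small negative medians positive, such as those of autophagy (0.15), proteasome (0.18), tubulins (0.10) and actin genes (0.19). The difference in total count, co-cultures minus neurons alone, was -538785 and ranged from -969000 to 110200 when 1 library was left out; that in genes detected was -77.1 and ranged from -282 to 58.8, with 26.7, 31.8, 7.04 and 9.67 among the reversed values. Both differences failed their test. Genes of few counts and single members of lists are limited most by depth and by the spread between 8 libraries.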

Other observations

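Glia other than the oligodendrocyte lineage gave few calls. Of 20 astrocyte genes 0 passed in edgeR, with a median log2 change of -0.79; 9 had an unadjusted p under 0.05, and DESeq2 called 2 and limma-voom 3, all lower. In edgeR up to 5 passed when 1 library was left out, and the median was -1.32 in loaded and -0.25 in untreated cultures; this difference was not tested. The glutamate transporter Slc1a2 had 256 to 3460 CPM (median 704) in co-cultures and 975 to 2947 CPM (median 1589) in neurons alone, with wide overlap. Among 18 neural progenitor genes Dll3 alone passed, with a list median of 0.47. Sox2, a progenitor transcription factor, had 169 to 757 CPM (median 306) in co-cultures and 8.66 to 306 CPM (median 131) in neurons alone, and did not pass. Nes, the intermediate filament nestin, had 103 to 317 CPM (median 144) in co-cultures and 22.0 to 984 CPM (median 396) in neurons alone, and did not pass either.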
